A study of Brachypodium distachyon and Sorghum bicolor and Panicum virgatum with 44 samples.

Results

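In the grass Brachypodium, 188 of 34310 genes were strongly raised by both drought and cold while staying near their control level in submergence and in heat. These genes were selected on their measured levels in the RNA-seq data. The TPM values (a level scaled for transcript length and library size) of the 2 libraries of each condition were averaged, 1 TPM was added, and each stress was divided by the control. Members had a ratio of at least 4 in drought and in cold, and a ratio above 0.5 and below 2 in submergence and in heat. Because the 4 ratios to control chose the genes, they are given here as a description with no test.

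All plants were of the inbred line Bd21, with no transgene or mutation named, and were 21 days old when the treatments began. The drought plants were lifted out of the soil, their roots were dried off, and tissue was taken after 12 h. The cold plants were kept at 4 °C for 12 h, the submerged plants stayed wholly under water for 12 h, the heat plants were kept at 40 °C for 12 h, and the control plants remained at 20 °C. Above ground tissue was collected, with 2 biological replicates per condition, and how many plants made up a replicate is not given in the sources used here. The series also holds PARE libraries (parallel analysis of RNA ends, which sequences the 5′ ends of cut RNA) from Brachypodium, sorghum and switchgrass, and of these only the table of predicted Brachypodium miRNA sites is used here.

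Drought removes water from plant cells, and cold makes water harder to take up and can pull it out of cells when ice forms. Plants such as Arabidopsis and rice meet both stresses with partly shared gene sets. Many of these genes are switched on through the hormone abscisic acid or through the CBF/DREB transcription factors, and many encode proteins that protect membranes and other proteins during water loss. A miRNA is a short RNA that guides the cutting of a matching mRNA. PARE detects the cut end, along with ends left by general RNA decay.

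The 10 RNA-seq libraries held from 9885357 to 17978729 expected counts, the drought libraries being the 2 smallest. Replicates correlated at 0.976 (cold) to 0.988 (control) on the log2 CPM scale across the 23494 genes that passed the filter on low counts. The marker gene available for green tissue, Bradi1g24870, which carries the chlorophyll a/b binding domain, had 546 and 588 TPM in drought, against 3876 and 3850 TPM in control, and from 2103 to 4015 TPM in the other stress libraries. In whole tissue, fewer cells of a type and less RNA per cell cannot be told apart. The gene identifiers carry no names in the files, and the protein domain annotation used here is held only in part and gives a domain for 5 of the 188 genes, so genes are given by identifier.

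Over all 34310 genes, 1889 (5.51%) had a ratio of at least 4 in drought, 634 (1.85%) in cold, and 343 (1.00%) in both. The 188 genes described here are 54.8% of these 343. The other 155 went past a limit in submergence or heat, and 112 of them were raised at least 2-fold in submergence while flat in heat. Only 10 were raised at least 2-fold in heat while flat in submergence, and 12 were at or below 0.5 in heat while flat in submergence. For comparison, 733 genes reached the ratio of 4 in drought while flat in the other 3 stresses, and 100 did so in cold alone.

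Together the 188 genes took 5.39% and 5.58% of all TPM in the drought libraries and 4.59% and 3.03% in the cold libraries. They took 0.268% and 0.296% in submergence, 0.235% and 0.198% in heat, and 0.212% and 0.218% in control. The median member had 59.2 and 54.5 TPM in the drought libraries, 47.0 and 38.4 TPM in cold, 2.75 and 3.37 TPM in submergence, 2.59 and 1.87 TPM in heat, and 2.27 and 2.10 TPM in control. In control, 68 members averaged under 1 TPM and 8 had no count in either library, so for these genes the ratio rests on the 1 TPM that was added. All 188 members passed the filter on low counts, which they could do through the drought and cold libraries alone.

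The strength of the response varied widely among the members. The drought ratio ran from 4.02 to 440 with a median of 11.5, and the cold ratio from 4.04 to 373 with a median of 9.92. Ratios of at least 10 were found for 106 members in drought, for 94 in cold and for 63 in both, and 109 members had the larger ratio in drought. Both drought libraries lay above both control libraries for all 188 members (34.9% over all tested genes) and both cold libraries did so for 187 (17.5%). These counts follow from the selection. The exception was Bradi2g47501, with 0.39 and 10.8 TPM in cold, against 0.44 and 0.25 TPM in control.

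**Figure D1:**
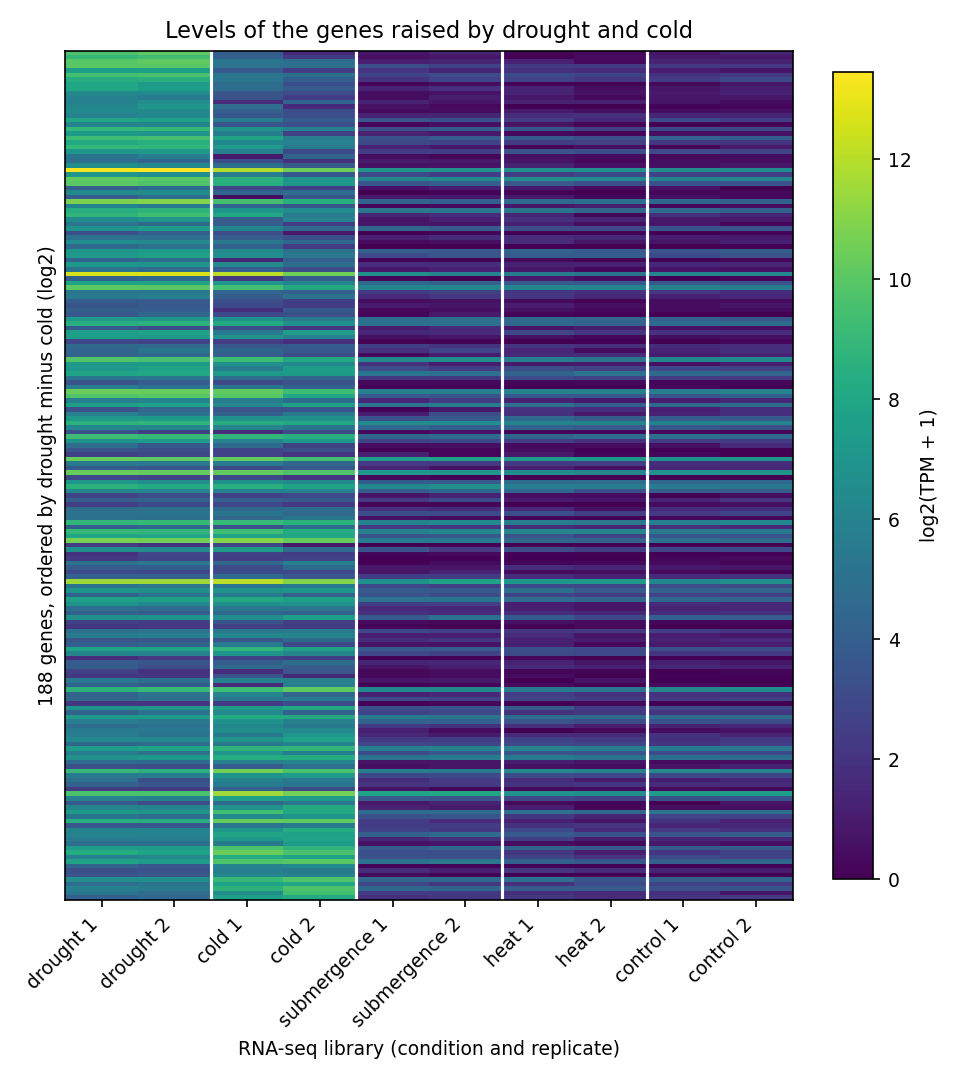
Level of each of the 188 genes (rows, ordered by the drought minus cold difference) in each of the 10 RNA-seq libraries (columns), coloured by log2(TPM + 1). The 4 drought and cold columns are bright and the 6 submergence, heat and control columns are dark, and the top rows are brighter in drought while the bottom rows are brighter in cold.

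The gene with the largest response in both stresses, judged by the smaller of its 2 ratios, was Bradi2g02340. It had 350 and 330 TPM in drought and 1263 and 1094 TPM in cold, against 2.93 and 1.39 TPM in control. Submergence gave 4.28 and 2.03 TPM and heat 1.29 and 0.70 TPM, so its drought and cold libraries stood far above all others and the cold libraries stood above drought.

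Bradi2g07480 had the reverse order, with 493 and 451 TPM in drought and 155 and 45.4 TPM in cold, against 0.19 and 0.97 TPM in control. Bradi1g03790 had 187 and 156 TPM in drought and 122 and 62.1 TPM in cold, against 0.42 and 0.53 TPM in control. Its neighbour by identifier, Bradi1g03770, had 68.0 and 63.9 TPM in drought and 116 and 303 TPM in cold, against 0.39 and 0.44 TPM in control. These neighbours therefore differed in which stress gave the higher level, and in which cold library was the higher one.

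Bradi2g15410 was both strong and abundant, with 1754 and 1555 TPM in drought and 2072 and 1183 TPM in cold, against 31.4 and 25.7 TPM in control. Its drought and cold libraries overlapped. Bradi3g17741 had 322 and 227 TPM in drought and 1314 and 770 TPM in cold, against 3.25 and 5.17 TPM in control. Bradi3g08870 had 148 and 161 TPM in drought and 106 and 73.5 TPM in cold, against 0.47 and 1.06 TPM in control. The last of the 8 strongest, Bradi4g18820, had 455 and 611 TPM in drought, against 2.63 and 1.61 TPM in control, and its cold libraries were far apart at 266 and 48.1 TPM.

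The most abundant member was Bradi5g10860, with 10074 and 11276 TPM in drought and 3835 and 1442 TPM in cold, against 100.4 and 93.8 TPM in control. It alone held 18.7% and 20.2% of the members' summed TPM in the drought libraries. Bradi3g51200 followed, with 6336 and 7020 TPM in drought and 4296 and 1436 TPM in cold, against 68.7 and 74.0 TPM in control. Both were higher in drought than in cold, with no overlap of libraries.

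Bradi1g64120 had 3013 and 3022 TPM in drought and 4476 and 2001 TPM in cold, against 77.6 and 94.8 TPM in control, and its submergence libraries differed at 110 and 227 TPM. Bradi2g37690 had 787 and 764 TPM in drought and 2957 and 1603 TPM in cold, against 166 and 184 TPM in control. Bradi2g04310 had 1786 and 2022 TPM in drought and 731 and 366 TPM in cold, against 20.8 and 16.8 TPM in control. In drought the 6 largest members made up 45.2% and 47.0% of the summed level, and in cold 41.9% and 28.9%.

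**Figure D2:**
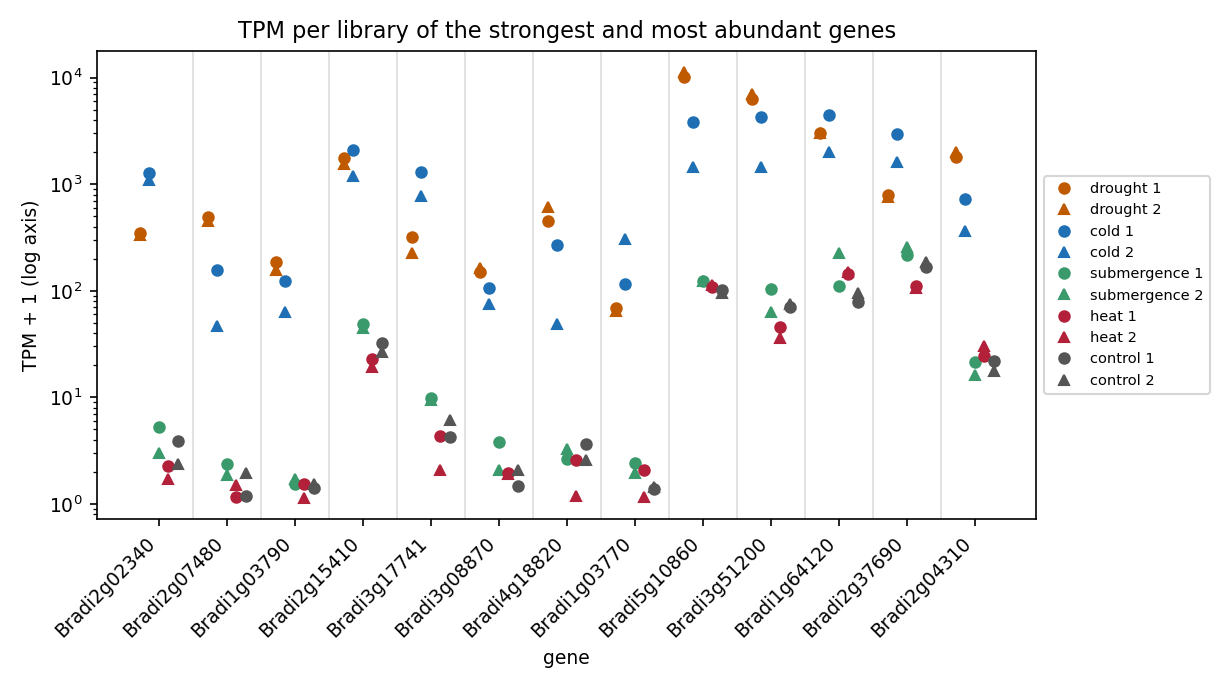
TPM + 1 on a log axis for the 8 genes with the largest smaller ratio (left) and 5 more of the most abundant genes (right), 1 point per library, coloured by condition. In every gene the 4 drought and cold points lie above the 6 submergence, heat and control points, and the cold replicates are farther apart than the drought replicates in most genes.

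The selection asked for the same minimum in drought and in cold and fixed no sign of their difference. It did bear on the size, since genes raised by drought alone or by cold alone were left out. The difference was tested with edgeR's quasi-likelihood test across 23494 genes (Benjamini-Hochberg adjusted p under 0.05). The libraries are those the selection used. Of the 188 members, 57 (30.3%) were higher in drought than in cold, where 27.2% of all tested genes were, and 45 (23.9%) were lower in drought, where 28.9% were. The other 86 did not pass the test. These shares lie near those of all tested genes, and since the selection used these levels nothing more is read from them. By libraries alone, both drought values lay above both cold values in 82 members (43.6%, against 38.5% of all tested genes), below them in 53 (28.2%, against 40.0%), and overlapped in 53.

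**Figure D3:**
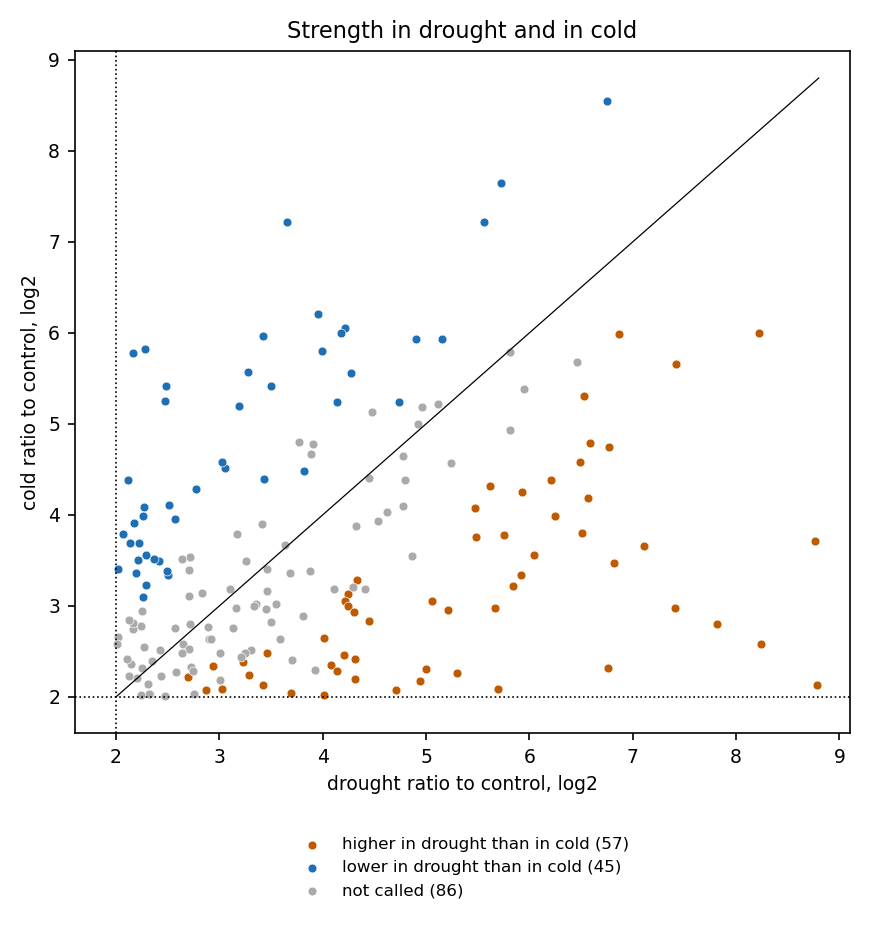
Cold ratio to control against drought ratio to control (both log2, with 1 TPM added) for the 188 genes, 1 point per gene, coloured by the edgeR call between drought and cold. Dotted lines mark the selection limit of 4-fold (2 on the log2 scale) and the solid line marks equal ratios; 57 called genes are higher in drought, 45 are lower and 86 were not called.

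The 57 members that were higher in drought had a median of 145 TPM in drought and 26.9 TPM in cold, against 1.53 TPM in control. The 45 that were lower in drought had a median of 48.3 TPM in drought and 165 TPM in cold, against 3.53 TPM in control. The 86 members with no call had medians of 27.3 TPM in drought and 28.5 TPM in cold, against 2.12 TPM in control.

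The genes described next are the 4 widest differences each way among members that had already passed the test. Since the selection used the same libraries, the edgeR values of single members here and below describe size and spread. They are not separate evidence of a difference. The widest difference towards drought was that of Bradi4g22785, with 833 and 1058 TPM in drought and 14.9 and 1.91 TPM in cold, against 0.69 and 1.61 TPM in control. Drought exceeded cold by 6.76 ± 0.64 on the log2 scale (SE, n = 2 each, edgeR adjusted p = 2.24e-05). Its 2 cold libraries disagreed, the lower one lay close to control, and the log2 difference was 8.90 without cold replicate 1 and 5.94 without cold replicate 2. Bradi4g23948 had 496 and 640 TPM in drought and 16.8 and 3.81 TPM in cold, a log2 difference of 5.74 ± 0.53 (SE, n = 2 each, edgeR adjusted p = 1.83e-05), which was 7.18 without cold replicate 1 and 5.03 without cold replicate 2.

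Bradi1g13760 had 1015 and 1173 TPM in drought and 36.4 and 27.8 TPM in cold, a log2 difference of 5.05 ± 0.41 (SE, n = 2 each, edgeR adjusted p = 9.04e-06). Bradi1g30980, a short transcript of 399 bases, had 1053 and 1009 TPM in drought and 33.2 and 28.7 TPM in cold. Its log2 difference was 5.01 ± 0.20 (SE, n = 2 each, edgeR adjusted p = 5.47e-07). In both genes the 2 cold libraries lay close together.

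The largest differences towards cold were smaller. Bradi3g40600 had 16.9 and 21.6 TPM in drought and 196 and 300.3 TPM in cold, against 3.15 and 3.91 TPM in control, a log2 difference of -3.73 ± 0.27 for drought minus cold (SE, n = 2 each, edgeR adjusted p = 5.33e-06). Bradi2g55920 had 59.7 and 45.5 TPM in drought and 416 and 829 TPM in cold, a log2 difference of -3.61 ± 0.30 (SE, n = 2 each, edgeR adjusted p = 1.12e-05).

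Bradi2g61150 had 37.9 and 26.1 TPM in drought and 97.9 and 679 TPM in cold, and its log2 difference of -3.65 carried the wider SE of 0.72 (n = 2 each, edgeR adjusted p = 0.00187). Without cold replicate 2 the difference shrank to -1.67 (edgeR adjusted p = 0.00245), and without cold replicate 1 it was -4.46. Bradi3g51960 had 27.2 and 35.1 TPM in drought and 224 and 265 TPM in cold, a log2 difference of -3.01 ± 0.47 (SE, n = 2 each, edgeR adjusted p = 0.00048). Of these genes, Bradi2g61150 was the one whose cold libraries disagreed most.

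Among the strongest and most abundant genes, the same test found Bradi2g02340 lower in drought than in cold, with a log2 difference of -1.84 ± 0.28 (SE, edgeR adjusted p = 0.000434), and likewise Bradi3g17741 (-1.97 ± 0.34), Bradi1g03770 (-1.71 ± 0.40) and Bradi2g37690 (-1.65 ± 0.24). Bradi2g07480 (2.19 ± 0.45), Bradi5g10860 (1.97 ± 0.38) and Bradi2g04310 (1.75 ± 0.33) were higher in drought. These sizes moved with the cold library left out, while the calls held. Without cold replicate 1 the log2 difference was 3.33 for Bradi2g07480, 2.85 for Bradi5g10860 and 2.34 for Bradi2g04310, and without cold replicate 2 it was 1.55 for Bradi2g07480 and -0.87 for Bradi1g03770. Bradi4g18820, Bradi3g51200 and Bradi1g03790 also passed as higher in drought, at edgeR adjusted p of 0.0369, 0.0453 and 0.0282. Without cold replicate 2 these edgeR adjusted p were 0.0629, 0.191 and 0.145, in a fit to the 4 drought and cold libraries alone they were 0.0774, 0.0877 and 0.0563, and the 3 calls were also lost without either drought library. DESeq2 gave Bradi4g18820 an adjusted p of 0.132. Bradi2g15410, Bradi1g64120 and Bradi3g08870 did not pass, with log2 differences of -0.02 ± 0.24, -0.15 ± 0.38 and 0.75 ± 0.29.

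The 2 cold libraries differed from each other more in these genes than over all tested genes. The larger cold value was a median 1.84 times the smaller one in the members, with 1 TPM added to both, against 1.15 times over all tested genes. In drought the same measure was 1.18 in the members and 1.16 over all tested genes. The selection used the mean of 2 libraries, so a gene could enter on 1 high library. The lower cold library was at least 4-fold over the higher control in 129 members, and the lower drought library in 163. The median level in cold was 41.5 TPM in the members and 8.82 TPM over all tested genes, and the added 1 TPM narrows the ratios of low genes. The part of selection and level in this contrast was not tested. At least a 2-fold excess of cold replicate 1 was found for 52 members (27.7%), against 2.58% of all tested genes, and at least a 2-fold excess of cold replicate 2 for 27 members (14.4%), against 1.15%.

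The direction was not the same for all members. Of the 57 genes higher in drought than in cold, 51 were higher in cold replicate 1, and 28 at least 2-fold so. Of the 45 genes lower in drought, 23 were higher in cold replicate 1 and 4 at least 2-fold so. Over all tested genes, 63.2% of those higher in drought and 33.5% of those lower in drought were higher in cold replicate 1. Both measures use the cold libraries, and no test was made of this pattern. Without cold replicate 1 the selection gave 156 genes and without cold replicate 2 it gave 211, of which 152 and 175 were among the 188.

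**Figure D4:**
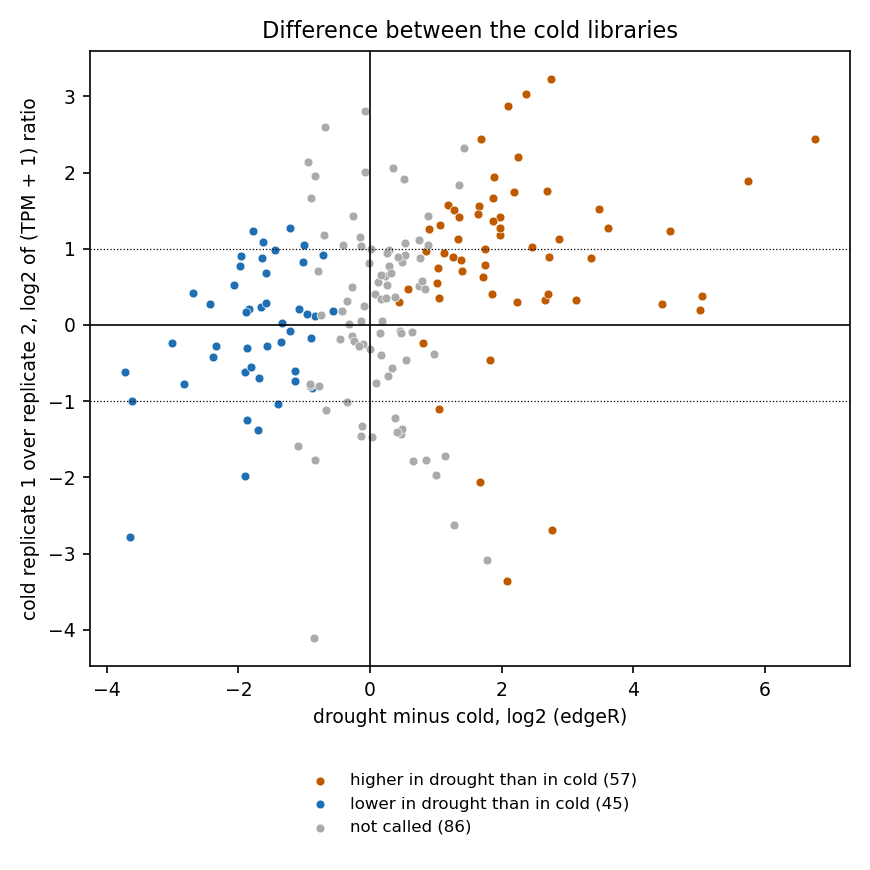
Ratio of cold replicate 1 to cold replicate 2 (log2, 1 TPM added to both) against the drought minus cold difference (log2, edgeR) for the 188 genes, coloured by the call between drought and cold. Dotted lines mark a 2-fold difference between the cold libraries; 28 of the 57 genes called higher in drought lie on or above the upper line, and 27 genes of any call lie on or below the lower line.

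In submergence and heat the members stayed low by selection, and their difference was bounded by it. The submergence ratio had a median of 1.21 and was under 1 in 47 members. The heat ratio had a median of 1.05 and was under 1 in 79 members. In the edgeR test of submergence minus heat, 22 members were higher in submergence, where 18.7% of all tested genes were, and 7 were lower, where 20.3% were. Since the limits of the selection hold both stresses near control, nothing is read from these counts against the background.

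Single members still differed in level between submergence and heat. Bradi1g11250 had 9.66 and 11.1 TPM in submergence and 3.59 and 1.55 TPM in heat, against 5.60 and 5.77 TPM in control. Bradi1g63480 had 31.2 and 39.4 TPM in submergence and 17.5 and 12.0 TPM in heat. In the other direction, Bradi2g43040 had 0.11 and 0.95 TPM in submergence and 2.84 and 2.45 TPM in heat. These genes were singled out after their values were seen, and since the selection used these levels they are given with no test.

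Genes near the limits show how narrow the selection was. Just inside the drought limit were Bradi4g37535 (ratio 4.02, with no TPM in control) and Bradi2g23160 (4.05), and just outside were Bradi3g33410 (3.98) and Bradi4g31890 (3.92). Just inside the cold limit were Bradi2g43040 (4.04) and Bradi5g26567 (4.05), and just outside were Bradi2g22460 (3.98) and Bradi4g14024 (3.95). At the upper limit in submergence, Bradi2g55920 (1.98) and Bradi2g31130 (1.97) were inside, and Bradi3g05660 (2.02) and Bradi1g76190 (2.05) were outside. At the lower limit, Bradi2g43040 (0.551) and Bradi5g22879 (0.618) were inside, and Bradi1g66920 (0.494) and Bradi2g57680 (0.407) were outside.

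At the upper limit in heat, Bradi4g07520 (1.86) and Bradi5g10570 (1.77) were inside, and Bradi1g44680 (2.01) and Bradi2g05163 (2.02) were outside. At the lower limit in heat, Bradi3g48490 (0.506) and Bradi1g11250 (0.534) were inside, and Bradi5g19380 (0.499) and Bradi1g76200 (0.488) were outside. Some of the excluded genes responded strongly. Bradi1g44680 averaged 507 TPM in drought and 1134 TPM in cold, against 6.07 TPM in control, and missed the selection by its heat ratio alone. Bradi1g76200 averaged 554 TPM in drought and 24.6 TPM in cold, against 1.16 TPM in control.

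The members lay on all 5 chromosomes, with 54, 42, 48, 26 and 18 genes on chromosomes 1 to 5. These are 28.7%, 22.3%, 25.5%, 13.8% and 9.57% of the members, against 28.9%, 22.2%, 22.1%, 17.1% and 9.69% of all genes. A neighbouring member within 100 identifier numbers was found for 46 members, in 22 runs of 2 or 3 genes. In 4 of the 22 runs the genes were called in opposite directions between drought and cold, in 3 all were called the same way, in 4 none was called, and in 11 some were called. The run of 3 at Bradi1g03770, Bradi1g03780 and Bradi1g03790 is among those with opposite calls. There Bradi1g03770 was called lower in drought and Bradi1g03790 higher, and Bradi1g03780 was not called. The call of Bradi1g03790 was lost under some settings, as given above. Runs were not counted for other genes, so neither clustering nor a pattern of calls is read from these counts.

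The members had shorter transcripts and fewer isoforms than the tested genes as a whole. Their median length was 1464 bases, against 1806 bases over all tested genes, and 158 (84.0%) had 1 isoform, against 69.0%. Expected counts that were not whole (above a whole number by more than 1e-06) occurred in 41 members (21.8%), against 26.1% of all tested genes. In counts per gene, such values can arise when reads are shared between genes. Bradi5g10860, Bradi3g51200, Bradi1g64120 and Bradi3g40600 are among these 41, so their levels rest partly on how shared reads were divided.

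The 5 members with a protein domain in the annotation ranged in the smaller of their drought and cold ratios from 4.42 to 23.9. Bradi1g32840, with a plastocyanin-like domain (the copper-binding fold of small electron carriers and related cell surface proteins), had 1053 and 824 TPM in drought and 358 and 139 TPM in cold, against 9.58 and 9.31 TPM in control. Bradi1g44170, with a NUDIX domain (enzymes that split nucleoside diphosphates linked to another group), had 63.3 and 65.3 TPM in drought and 135 and 322 TPM in cold, against 3.71 and 2.51 TPM in control. The first was higher in drought than in cold (1.87 ± 0.38, edgeR adjusted p = 0.00209) and the second was lower (-1.87 ± 0.46, edgeR adjusted p = 0.0062).

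Bradi1g13500, with a RING zinc finger (often found in ubiquitin ligases), had 30.0 and 33.9 TPM in drought and 39.8 and 45.3 TPM in cold, against 4.72 and 3.37 TPM in control. Bradi1g44690, with a putative peptidoglycan binding domain, had 21.2 and 27.3 TPM in drought and 41.3 and 46.7 TPM in cold, against 3.67 and 4.88 TPM in control. Bradi1g47130, with leucine rich repeats (a protein binding fold), had 4.61 and 7.22 TPM in drought and 6.54 and 3.79 TPM in cold, against 0.31 and 0.48 TPM in control. The part of the annotation held here covers 1123 of the 34310 genes (3.27%), 1121 of them on chromosome 1, where all 5 annotated members lie. None of its protein phosphatase 2C (6), transcription factor (30), chaperone (10), protein kinase (22), transporter (7), osmolyte and sugar (3), lipid (4) or water stress membrane protein genes (4) was a member. The transcription factors counted were those with an AP2, bZIP, NAC, MYB, WRKY, homeobox, CCAAT-binding, C2H2 zinc finger or HSF domain. The annotation holds no dehydrin, late embryogenesis abundant or WCOR413 gene. With 2.66% of the members annotated, these counts of 0 do not show that such genes are missing from the members.

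The predicted miRNA sites were not used by the selection. In the Brachypodium site table, 69 members (36.7%) carried 107 predicted sites, against 44.0% of all genes and 50.7% of the genes that passed the filter on low counts. A PARE read lay exactly at the predicted cleavage position of 56 sites in 42 members. By gene, that is 22.3% of the members, against 21.0% of all genes and 29.5% of the genes that passed the filter. By site, it is 52.3% of the members' sites, against 37.8% of all sites and 44.6% of the sites in genes that passed the filter. This share of sites was 49.1% in the genes raised in drought alone, 50.0% in those raised in cold alone, and 55.9% in all 343 genes raised by both. Reads at the members' sites were mostly few, with 36 of the 56 sites at 1 TP10M and 10 sites from 2 to 9 TP10M. TP10M is the unit of normalised PARE abundance. How many reads stand behind a value is not known, and the table holds 1 value per site, so no error can be given.

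The table grades a site by 3 criteria, namely an abundance of at least 10 TP10M, a rank among the 2 most abundant PARE sequences of the transcript, and a share of its PARE abundance that in the table had to reach 20.0%, a higher limit than the study's text states. The level is 1 for a site with a read plus 1 for each criterion met. In the members, 10 sites met the abundance criterion, and none met the rank or the share criterion, so that none was above Level 2. The 10 sites are 17.9% of the members' sites with a read, against 3.64% over all genes, 3.75% in the genes raised in drought alone and 9.09% (3 of 33) in those raised in cold alone. In all 343 genes raised by both, which include the members, it was 12.6% (15 of 119). Over all genes, 2.01% of the sites with a read reached Level 3 or 4. The largest share at a member site, far below either limit, was 2.23% of the transcript's PARE abundance, and the median share was 0.227%, against 0.293% over all genes. The study makes no claim that every Level 1 site was cut through a miRNA. Whether the reads at the members' sites come from such cutting or from general decay was not tested.

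The 9 miRNAs predicted for the 10 sites of Level 2 are shown because these sites carry the members' highest PARE abundances. Each mature sequence is given as in the site table, 5′ to 3′, with bases 2 to 8, the seed, in capitals. No seed occurs in more than 1 of the 9 miRNAs.
miR9494: uUCAUCACcuucgucuccguc
miR164a-3p: cAUGUGCCcuucuucuccacc
miR5198: gGGGAAAAgagauugagggag
miR9484: uAGUGCAGggagaagucgguc
miR7710-5p: uACUACAGaucgugaugucaacuu
miR5163b-3p: uAGAUAUUucagguugugugga
miR7777-3p.1: uUGUUCCAcccaacagaagau
miR167d-3p: aGAUCAUGuugcagcuucac
miR169g_miR169e-5p: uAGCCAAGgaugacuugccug

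The highest abundance was 43 TP10M in Bradi5g04560, at position 187 of the transcript, for miR9494. This gene had 501 and 461 TPM in drought and 619 and 309 TPM in cold, against 42.5 and 43.1 TPM in control. The abundance was 0.432% of the transcript's PARE abundance, and the library named for the site was cold replicate 1.

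miR164a-3p was predicted at a Level 2 site in 2 members. In Bradi1g63480 the site at position 424 had 24 TP10M, or 0.156% of the transcript's PARE abundance, with cold replicate 1 named, and in Bradi3g51200 the site at position 855 had 10 TP10M, or 0.153%, with cold replicate 2 named. Bradi1g63480 had 212 and 172 TPM in drought and 856 and 1040 TPM in cold, against 16.4 and 21.4 TPM in control, and was lower in drought than in cold (-2.35 ± 0.21, edgeR adjusted p = 1.40e-05). The other arm of the hairpin, miR164a-5p, is the strand known to guide the cutting of NAC transcription factor mRNAs in Arabidopsis and rice. It was predicted in the NUDIX gene Bradi1g44170, with 3 TP10M.

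Bradi2g07480, the gene with the second largest response in both stresses, had 13 TP10M at position 431 for miR167d-3p, or 0.371% of the transcript's PARE abundance, with drought replicate 2 named. Bradi2g15810 had 17 TP10M at position 2419 for miR9484, also in drought replicate 2. This gene had 630 and 703 TPM in drought and 229 and 48.7 TPM in cold, against 18.1 and 15.9 TPM in control. Bradi3g51960 had 16 TP10M at position 1877 for miR5163b-3p, with cold replicate 2 named.

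The other 4 sites were named for libraries that do not match a sample here. In the study these are tissue libraries, BDI21 (leaf replicate 1) for Bradi3g48490 and BDI23 (stem replicate 1) for the rest. Bradi4g29360, with 251 and 186 TPM in drought and 26.9 and 14.1 TPM in cold, against 0.73 and 1.15 TPM in control, had 19 TP10M at position 2428 for miR5198. Bradi3g48490, with 421 and 541 TPM in drought and 618 and 1102 TPM in cold, against 75.4 and 93.3 TPM in control, had 16 TP10M at position 304 for miR7710-5p. The plastocyanin-like gene Bradi1g32840 had 14 TP10M at position 1307 for miR7777-3p.1, which is the 2.23% share given above. Bradi2g59920, with 96.7 and 102 TPM in drought and 505 and 865 TPM in cold, against 15.9 and 18.2 TPM in control, had 10 TP10M at position 810 for miR169g_miR169e-5p, a member of the family known in Arabidopsis to target NF-YA factors.

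**Figure D5:**
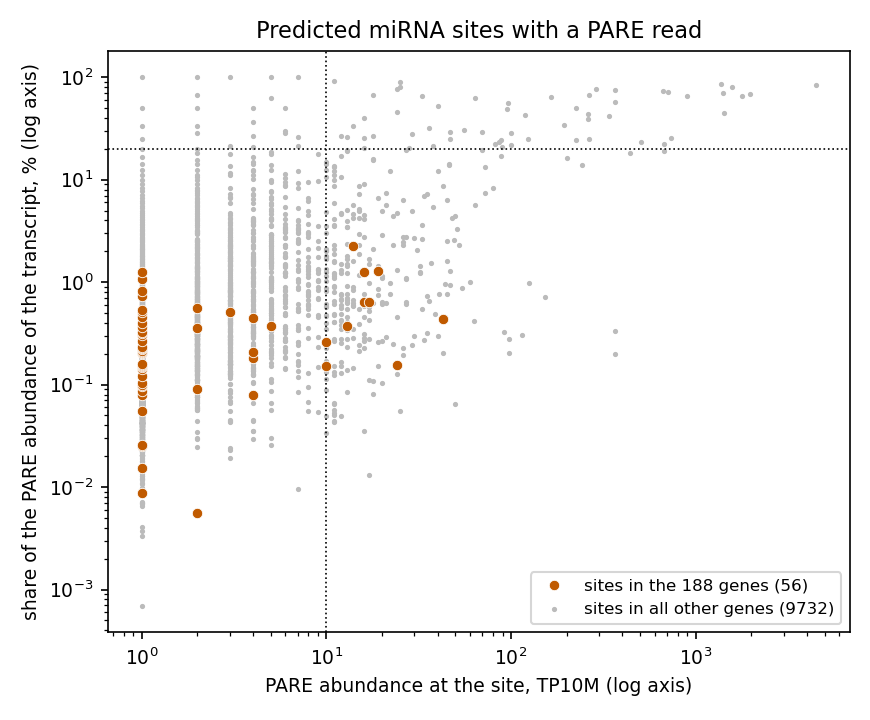
Share of the transcript's PARE abundance (%, log axis) against PARE abundance at the site (TP10M, log axis) for the 56 sites with a read in the 188 genes (large points) and the 9732 such sites in all other genes (small points). Dotted lines mark the criteria of 10 TP10M and 20%; 10 of the members' sites reach the first and none comes near the second.

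The library named for a site was a drought library in 16 of the 56 sites (28.6%, against 18.3% of all sites with a read) and a cold library in 11 (19.6%, against 17.7%). Submergence libraries were named for 5 sites (8.93%, against 15.8%), heat libraries for 5 (8.93%, against 16.8%) and control replicate 1 for 2 (3.57%, against 8.50%). The other 17 sites (30.4%, against 22.9%) named libraries that do not match a sample here. Some of these libraries are replicate 1 of leaf (BDI21), stem (BDI23) and panicle (BDI25) in the study. Stem replicate 1 was named most often among them, and more often than any single drought or cold library. Of the 17 sites, 5 named BDI490, where control replicate 2 is titled BDI490b, and whether these are the same library is not known. With them, control would be named for 7 of the 56 sites (12.5%), against 16.4% of all sites with a read. In the genes raised in drought alone, drought libraries were named for 35.2% of such sites and cold libraries for 14.2%. In those raised in cold alone, the shares were 27.3% and 24.2%. The members' transcripts are more abundant in drought and cold by selection, and its part in these shares was not tested. What the name records when several libraries hold the read is not stated.

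The abundance at a site divided by its share gives the transcript's PARE abundance behind that share, which differed between sites of 1 transcript in 12 of the members' transcripts and so is no fixed total of a transcript. Over the members' 56 sites with a read its median was 764 TP10M, against 421 TP10M over such sites in all genes that passed the filter. Whether the larger number of reads at the members' sites goes with this measure was not tested.

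Several miRNAs were predicted in more than 1 member. miR7773-5p had sites in Bradi1g58380, Bradi1g73230 and Bradi3g18090, none with a read. miR168-5p, which in Arabidopsis is known to target the mRNA of the slicer AGO1, had 1 TP10M each in Bradi1g54650 and Bradi3g45180. Bradi3g45180 also held a site for miR319a with 1 TP10M, and the site of the same miRNA in Bradi4g09225 had none. In all, 92 miRNA names were predicted over the members' sites and 53 over the sites with a read, and 28 members held at least 2 sites.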

How the data were processed

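RNA-seq of Brachypodium above ground tissue gave 10 libraries, 2 for each of drought, cold, submergence, heat and control, grouped by the sample labels. The authors mapped reads to the v3.1 genome with STAR 2.5.3a and deposited RSEM 1.2.31 expected counts and TPM values per gene (versions from the submitters' processing notes). From 13.3% to 15.6% of the expected counts per library were not whole. TPM keeps no depth. PARE reads were mapped without mismatches with Bowtie 0.12.7. The deposited site table gives whole-number TP10M abundances and prediction values, used as scores, and the share of the transcript's PARE abundance as a fraction.

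Members were found on deposited TPM with a pseudocount of 1. For the tests, expected counts were rounded, genes were kept by filterByExpr and libraries were scaled by TMM (factors 0.825 to 1.22). The edgeR 4.0.16 quasi-likelihood test (R 4.3.3) had all 10 libraries in 1 fit, with Benjamini-Hochberg adjustment over 23494 genes and a threshold of 0.05. The SE is the log2 difference divided by the square root of F. The script was tested on simulated data. Members, lists and tests were chosen with earlier results of these data known. Named genes were the 8 with the largest smaller ratio, the 6 most abundant in drought and cold, the 4 widest separated differences each way between drought and cold with a mean of at least 10 CPM, those with a site of Level 2 or above, the 2 on each side of every limit, and those with an annotated domain. Alternatives were other pseudocounts, limits, scalings, filters, tools and libraries. Gene identifiers matched none of the 31335 genes of the RefSeq table, so no names, positions or promoters were used. Sorghum and switchgrass files were not used here.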

Additional observations from a re-analysis of the deposited data

How the results depend on the processing

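The number of genes selected depended on the limits. It was 303 with 0.1 TPM added in place of 1 (133 shared with the 188), 121 with 5 TPM added (92 shared), 306 with a limit of 3-fold, 107 with a limit of 6-fold, and 112 when the lower stress library was set over the higher control library. TMM scaled CPM in place of TPM gave 263 genes, 171 of them shared. Leaving out 1 library gave from 156 to 211 genes.

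Between drought and cold, leaving out 1 library gave from 39 to 74 members higher in drought and from 34 to 46 lower, with 74 higher without cold replicate 1, 46 lower without cold replicate 2, and both lowest counts without drought replicate 2. All other settings stayed within 1.5 times of 57 and 45. Between submergence and heat, leaving out 1 library gave from 8 to 19 members higher and from 3 to 7 lower: 8 higher without heat replicate 2, 14 higher without submergence replicate 1 and 3 lower without heat replicate 1. DESeq2 1.42.0 gave 36 higher, a log2 difference of at least 1 left 13 higher, and a fit to the 4 libraries alone, which tested 130 of the members, gave 11 lower. Bradi3g08870 passed as higher in drought under 6 settings, DESeq2 among them.

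Deviations of same-numbered replicates correlated weakly, from -0.17 (submergence with heat) to 0.14 (cold with control), and heat correlated negatively with every other group. Whether the numbers pair the samples cannot be told from such correlations, and the main fit used no pairing. The replicate block gave 62 higher and 44 lower between drought and cold and 25 higher and 8 lower between submergence and heat. Crossing the heat numbers, which was added once the data had been seen, gave 25 higher and 7 lower between submergence and heat.

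At a minimum of 2 TP10M, 20 sites in 20 members had PARE reads, and at 10 TP10M, 10 sites in 10 members. The promoter motif search was not run, since the gene identifiers could not be matched to promoter sequences. With 2 libraries a group, the precision is low, and members without a call cannot be taken as equal between the stresses.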
